A study of Mus musculus with 3 samples.

Results

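The cells described here are epithelial cells of the adult mouse lacrimal gland (LG) that carried transcripts of both *Ltf*, the gene of the iron-binding tear protein lactoferrin, and *Kit*, the gene of the receptor tyrosine kinase KIT. A cell was a member when it had at least 2 *Ltf* unique molecular identifiers (UMIs, counted transcript molecules), at least 2 UMIs summed over the partner genes *Dmbt1*, *Fcgbp*, *Sftpd*, *F5* and *Ccl9*, at least 1 *Kit* UMI, and no UMI of *Ptprc*, *Pecam1* or *Col1a1*, which mark immune cells, endothelium and fibroblasts. The rule took 193 of 19592 kept cells. The female library held 51 members, the male libraries 79 (male 1) and 63 (male 2), which is 0.615%, 1.42% and 1.10% of the kept cells. Another 625 cells met every criterion except the *Kit* UMI and are called Kit- Ltf+ cells. The 193 members thus made up 23.6% of 818 Ltf+ cells.

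LGs of 2-month-old C57BL/6J mice were dissociated, depleted of dead cells and profiled with droplet-based 3′ single-cell RNA-seq. Each of the 3 libraries pooled 6 glands from 3 animals, with 1 library from Female and 2 from Male mice. The mice carried no transgene and received no treatment. A different core facility prepared the female library on its own date, so that sex cannot be told apart from core and date, and no test between sexes was made. The kept cells held 60331289 (female), 39455793 (male 1) and 43337901 (male 2) UMIs, with medians of 3302, 1891 and 1879 UMIs per cell. Values for the 3 libraries follow that order throughout. Levels are given as CPM, the UMIs per 1000000 UMIs outside tear-product and mitochondrial genes.

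KIT binds stem cell factor, the product of *Kitl*, and signals through the RAS/MAPK, PI3K and JAK/STAT pathways; it is known in mast cells, melanocytes, germ cells and blood progenitors, and marks progenitor-like luminal cells of the mammary gland. In exocrine glands the receptor is also found on subsets of duct and acinar cells. Lactoferrin belongs to the antimicrobial proteins of tears, beside the scavenger receptor family protein DMBT1, the mucin-like protein FCGBP and the collectin surfactant protein D encoded by *Sftpd*.

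*Kit*, *Ltf* and the partner genes chose the members, so their values are a description. Members held 294 *Kit* UMIs in all, 121, 99 and 74 in the 3 libraries. A single *Kit* UMI was found in 135 of the 193 members (69.9%), 2 in 39 and 3 or more in 19, of which 14 were female cells. The mean was 2.37, 1.25 and 1.17 *Kit* UMIs per member and the maximum 8, 3 and 3. Membership of most male cells therefore rested on 1 molecule, for 78.5% and 85.7% of the male members against 37.3% of the female ones. The median *Ltf* count was 212, 35 and 36 UMIs in members and 62, 18 and 20 in Kit- Ltf+ cells. The partner genes summed to medians of 112, 18 and 14 UMIs in members. *Sftpd* was detected in 100%, 96.2% and 95.2% of members, and *Fcgbp* in 84.3%, 65.8% and 46.0%. Cells just inside the limits were few, with 1 member at 2 *Ltf* UMIs and 4 at 2 partner UMIs. Just outside, 2 otherwise qualifying cells had 1 *Ltf* UMI, 6 had 1 partner UMI, and 12, of which 11 were female, had a UMI of *Ptprc*, *Pecam1* or *Col1a1*.

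The label of epithelial cells held against most of the markers. *Epcam*, an epithelial adhesion molecule, was detected in 100%, 91.1% and 87.3% of members, and the simple-epithelium keratin *Krt18* in 100%, 96.2% and 93.7%. The claudin *Cldn3* was detected in 98.0%, 65.8% and 61.9%, and *Cdh1*, which encodes E-cadherin, in 60.8%, 34.2% and 28.6%. The keratin *Krt8* was detected in 100%, 97.5% and 90.5%, and the claudin *Cldn7* in 88.2%, 50.6% and 44.4%. *Cldn4* was scarce, at 15.7%, 8.86% and 4.76%. All 8 mast cell genes examined, among them *Cpa3*, *Mcpt4* and *Fcer1a*, were at 0 UMIs in every library, in members and in the compared Kit- cells alike. Over the members paired below, the melanocyte and Schwann cell list had 3, 0 and 0 UMIs, the endothelial list 2, 1 and 2, and the fibroblast list 8, 24 and 0. Of 9 lymphoid genes 6, 7 and 8 were at 0, and the list had 26, 10 and 5 UMIs in members against 11, 3 and 2 in paired Kit- cells, all of them from *Il7r*, *Gata3*, *Rora* and *Ltb*. The T cell markers *Cd3g*, *Cd3d* and *Trac* and the macrophage marker *Adgre1* were at 0. The myeloid list as a whole had 9, 7 and 16 UMIs in members against 26, 9 and 62 in paired Kit- cells. The 11 myoepithelial genes, which include keratins of other epithelia, had 283, 92 and 35 UMIs in members against 170, 32 and 94 in paired Kit- cells, with *Cnn1* and *Oxtr* at 0 in members. *Acta2*, the smooth muscle actin of contractile cells, was detected in 0%, 7.59% and 1.59% of members. *Mki67*, a proliferation marker, had a UMI in 0, 2 and 0 members, and *Kitl* in 3, 0 and 1.

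**Figure D1:**
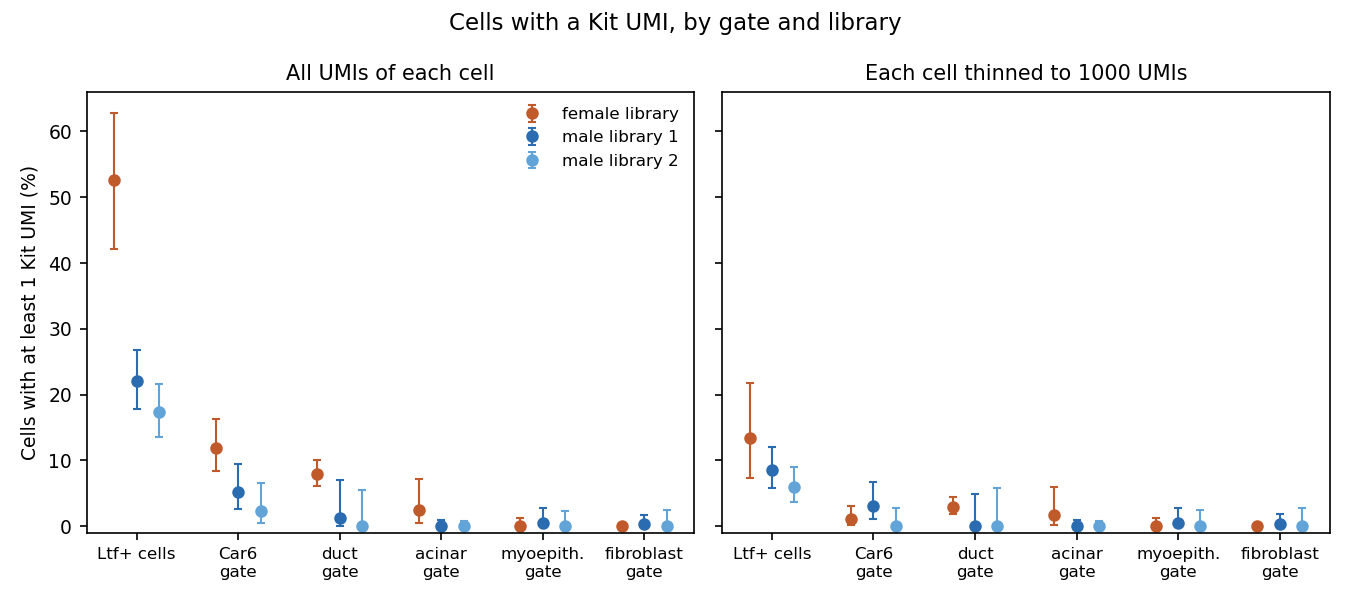
Share of cells with at least 1 *Kit* UMI (y axis, percent) in each gate (x axis) and library (colours), with all UMIs on the left and each cell thinned to 1000 UMIs on the right; bars are exact 95% binomial intervals. Ltf+ cells stand above the other gates in all 3 libraries as counted (52.6%, 22.1% and 17.4%) and thinned (13.4%, 8.55% and 6.00%). Thinning counts tear products, so the tear-rich *Car6* and acinar gates keep fewer UMIs of other genes.

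*Kit* was found in a larger share of Ltf+ cells than of any other gate taken whole, in each library. The share of Ltf+ cells with a *Kit* UMI was 52.6% in females (exact binomial 95% interval 42.2% to 62.8%), 22.1% in male 1 (17.9% to 26.7%) and 17.4% in male 2 (13.6% to 21.7%). These intervals cover counting error only. Ltf+ cells of the female library were deeper, with a median of 8358 UMIs against 2504 and 2340. With every cell thinned at random to 1000 UMIs the shares were 13.4% (7.33% to 21.8%), 8.55% (5.84% to 12.0%) and 6.00% (3.75% to 9.03%), or 64 of 798 Ltf+ cells (8.02%). The thinned intervals of the 3 libraries overlapped.

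*Kit* was scarce in the other gates. In a fibroblast gate, which should lack the gene, 0 of 1351 female cells, 0.307% in male library 1 and 0% in male library 2 had a *Kit* UMI, at median depths of 3287, 1651 and 1393 UMIs. Acinar gate cells had one in 2.52%, 0% and 0%, at medians of 4878, 5474 and 7208 UMIs, most of them on tear-product genes. Outside tear-product and mitochondrial genes their medians were 2286, 1100 and 1202 UMIs, against 4997, 1200 and 1119 in Ltf+ cells. Duct gate cells, chosen on *Wfdc2* with basal and ductal genes, had one in 7.92%, 1.30% and 0%, and 2.90%, 0% and 0% when thinned. A gate on *Car6*, which encodes the secreted carbonic anhydrase VI, with *Kcnn4*, *Folr1* and *Lrrc26* had one in 11.9%, 5.24% and 2.29%, at medians of 37239.5, 14175 and 19329 UMIs. Among the cells of that gate with at least 50 *Car6* UMIs the share was 40.3% (31 of 77), 7.69% (2 of 26) and 9.09% (3 of 33), against 0.995% (2 of 201), 4.85% (8 of 165) and 0% (0 of 98) of its other cells.

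Free RNA held little *Kit*. Among uncalled barcodes of 10 to 100 UMIs, *Kit* had 0, 1 and 2 UMIs in all, which at the members' depth corresponds to 0, 0.0254 and 0.0640 UMIs per member, against 2.37, 1.25 and 1.17 counted. *Ltf* stood at or below its free-RNA rate in 3 of 193 members and in 32 of 625 Kit- Ltf+ cells, all of them cells in which tear-product genes took at least 60% of UMIs. No member shared its barcode with a member of another library. Kept cells shared 11 to 17 barcodes between pairs of libraries, and whether a member was among them was not tested.

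**Figure D2:**
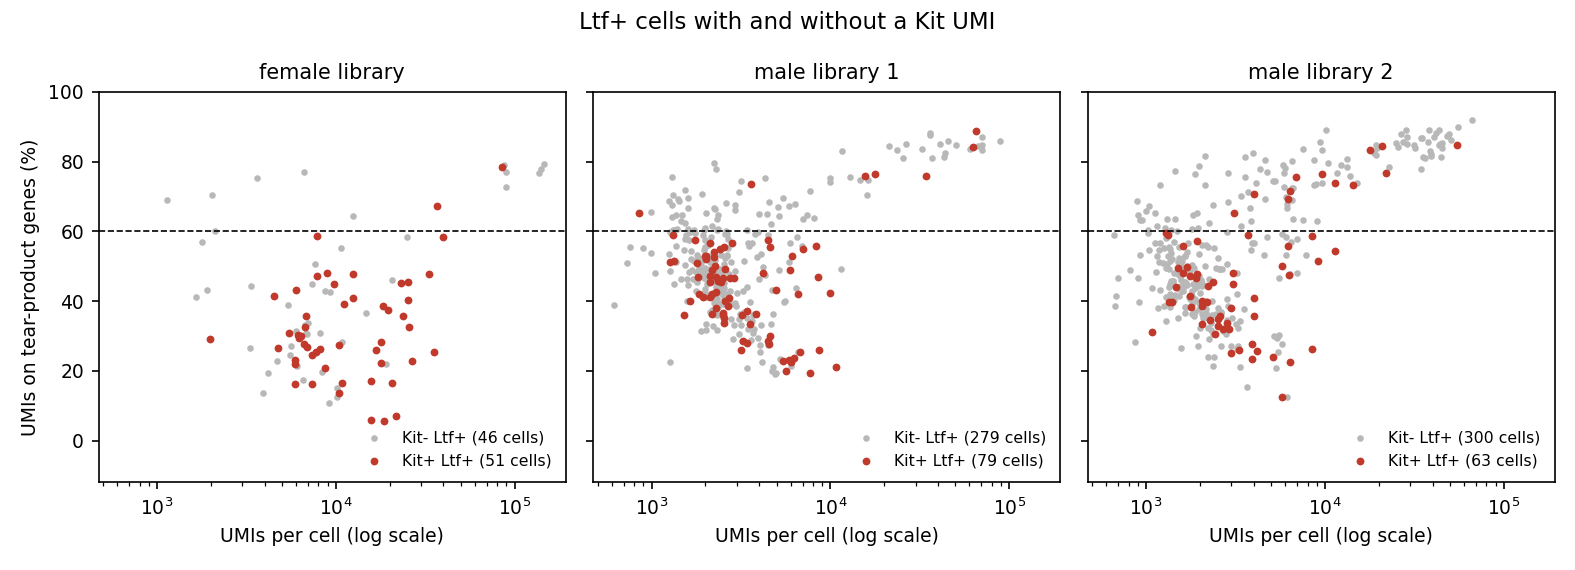
Percent of a cell's UMIs on 117 tear-product genes (y axis) against its UMIs (x axis, log scale) for members and Kit- Ltf+ cells in the 3 libraries; the dashed line marks 60%. Members at or above the line number 2, 7 and 12, Kit- Ltf+ cells 12, 80 and 110.

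Members differed from Kit- Ltf+ cells in what filled their libraries. Tear-product genes, a list of 117 abundant secreted-protein genes that includes *Ltf* and *Car6*, took a median of 29.4%, 45.6% and 45.0% of a member's UMIs. Members at or above 60% numbered 2, 7 and 12, or 21 of 193 (10.9%), against 202 of 625 Kit- Ltf+ cells (32.3%). These cells held 15.4%, 43.2% and 50.8% of the members' UMIs, and 72.4%, 67.5% and 79.7% of those of Kit- Ltf+ cells. Free RNA was itself rich in tear products, at 68.9%, 79.8% and 79.9%. In male Ltf+ cells above 8000 UMIs, where the median tear-product share was 82.0% and 83.5%, *Kit* stood at 55.6 and 53.2 CPM, below the 117 to 221 CPM of the shallower male cells. Detection of *Kit* in male cells did not climb with total UMIs above 4000, at 30.5% then 26.3% of male 1 cells and 22.6% then 17.5% of male 2 cells.

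Members were next compared with Kit- Ltf+ cells of like depth. Each was paired within its library with 1 Kit- Ltf+ cell nearest in UMIs outside tear-product and mitochondrial genes, UMIs were summed per library and arm, and 3965 genes were tested with the edgeR quasi-likelihood test with library as a term and Benjamini-Hochberg adjustment. The pairing held in the male libraries, with medians of 1447 against 1438 and 1515 against 1521 such UMIs. It did not hold in the female library, where Kit- cells were fewer than members. There, all 46 Kit- cells were taken and 46 of 51 members found a partner. Members were paired from the deepest down, so the 5 left over were the shallowest. The medians were 7613.5 against 4305.5. Over all female members the median was 6322, so pairing widened the depth gap there. Few genes were called, with 21 higher in members (0.53% of genes tested), 112 lower (2.82%) and 3.35% either way, and a median log2 fold change of 0.02 over all genes. Scaling to total UMIs in place of the trimmed mean of M-values (TMM) raised the median gene by 1.01 (log2) and gave 2889 higher and 21 lower. In CPM the median gene stood higher in members by 0.50, 0.13 and 0.13 (log2), whereas the fold changes of the TMM-scaled fit are centred near 0, so directions below are relative to the median gene.

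Among the genes higher in members, *Car6* (ENSMUSG00000028972) stood first by adjusted p. Its level was 5484, 8513 and 4118 in members against 891, 3268 and 1532 in paired Kit- cells, higher in 3 of 3 libraries, for a log2 fold change of 1.52 (SE 0.17, adjusted p = 5.18e-04). A few cells carried this difference. The top 3 members held 91.9%, 70.5% and 85.2% of the members' *Car6* UMIs, the median member had 3, 1 and 1, and 12 of 193 members (6.22%) had 50 or more against 11 of 625 Kit- Ltf+ cells (1.76%). Without cells at 50 or more *Car6* UMIs, a setting added once the data had been seen, its log2 fold change was -0.72 (adjusted p = 0.32).

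The other genes higher in members had varied roles. *Dsp* (ENSMUSG00000054889), which encodes the desmosomal plaque protein desmoplakin, stood at 534, 435 and 395 in members against 196, 216 and 253, a log2 fold change of 0.80 (SE 0.15, adjusted p = 0.0021). *Fam13a* (ENSMUSG00000037709) stood at 158, 147 and 142 against 40.3, 11.3 and 94.8, a log2 fold change of 1.46 (SE 0.33, adjusted p = 0.011). Both were higher in every library, with no overlap between the arms. The small heat shock protein gene *Hspb8* (1.80), the growth factor-binding transmembrane gene *Crim1* (1.08), the tropomyosin gene *Tpm1* (0.79), the annexin gene *Anxa2* (0.69) and the immediate-early gene *Egr1* (0.70) were also higher on the log2 scale. So were the ubiquitin ligase gene *Arih1* (1.31), the nuclear protein gene *Emsy* (1.74), the palmdelphin gene *Palmd* (0.81) and the large scaffold gene *Ahnak* (0.71). *Sult1d1*, a sulfotransferase gene, stood at 543, 469 and 221 against 177, 176 and 197, a log2 fold change of 0.94 (SE 0.18, adjusted p = 0.0021). The rule genes *F5* and *Dmbt1* were fitted as well, with log2 fold changes of 0.62 and 0.43 that describe the choice of cells.

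**Figure D3:**
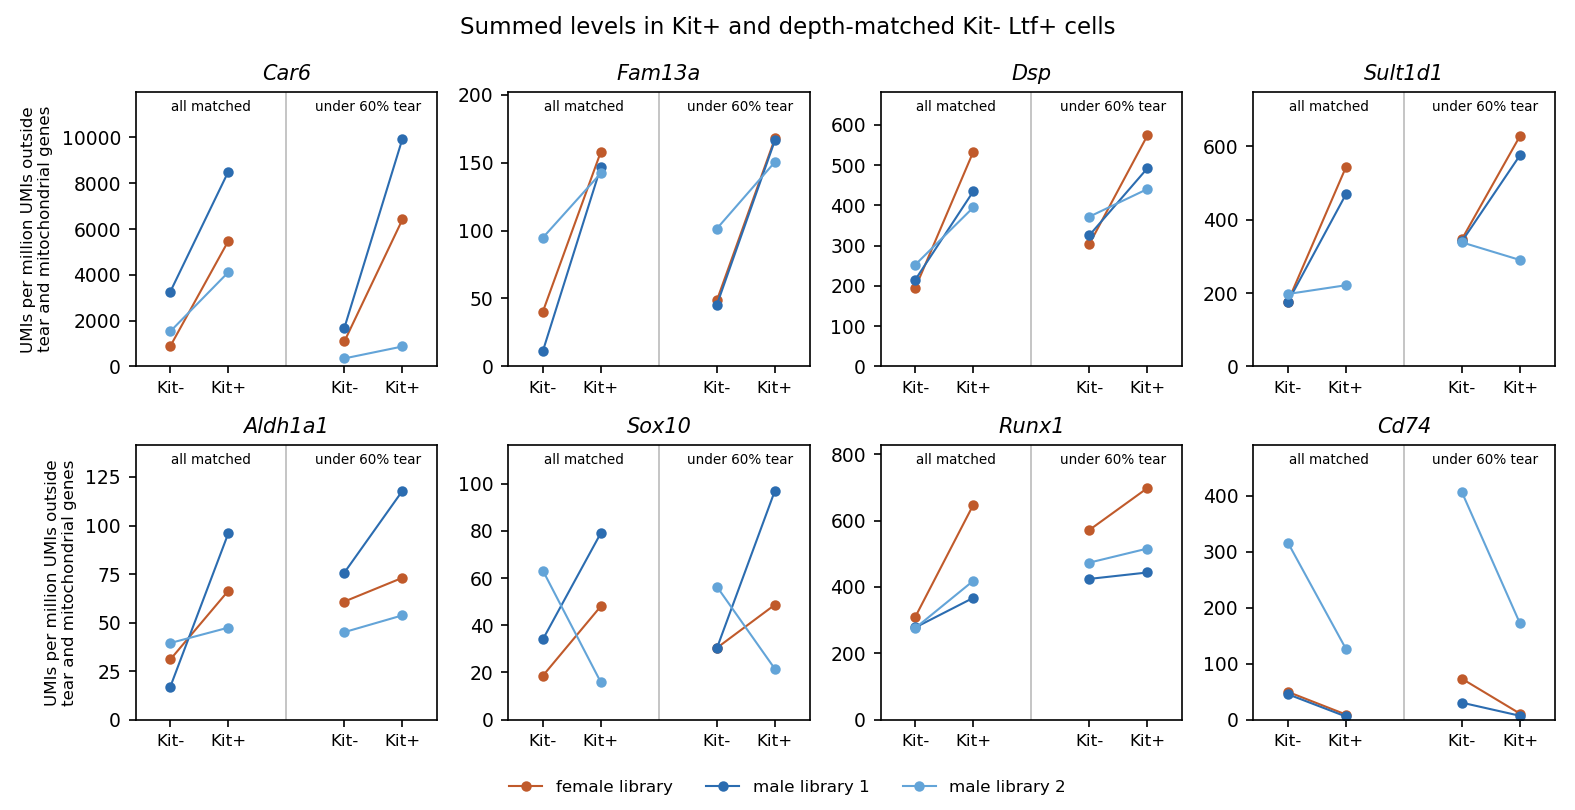
Level (y axis, CPM) of 8 genes in Kit- Ltf+ cells and members; each point is 1 library (colours), lines join the arms of a library, and the panels set all paired cells beside cells under 60% tear products. *Car6*, *Fam13a* and *Dsp* lie higher in members in every library, *Cd74* lower, and *Sox10* lies lower in the members of male library 2 only (15.8 against 63.2).

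Acinar genes were among those lower in members. Of the 14 acinar genes tested, 8 were lower and none higher, with a median log2 fold change of -1.30; with total-UMI scaling *Lpo* stood at 0.24 and the 7 others stayed below 0. They included *Pigr*, the receptor that carries IgA across epithelium, at 112, 107 and 126 against 258, 216 and 229 (log2 fold change -1.43, SE 0.20, adjusted p = 6.02e-05), the lactoperoxidase gene *Lpo* (-0.70) and the odorant-binding protein genes *Obp1a* (-1.39) and *Lcn11* (-1.22). Tear-gland pheromone and secretoglobin genes, among them *Obp1b* (-3.77), *Esp36* (-2.79), *Esp24* (-2.35) and *Scgb1b2* (-1.73), were lower too. *Esp24* had 0 against 1 UMI in the female library, so its value comes from the male libraries. *Obp1b* had 10891, 6 and 6 UMIs in members against 52504, 70 and 247, and *Esp36* 11, 0 and 0 against 28, 13 and 6. *Xbp1*, a transcription factor of the secretory pathway, was lower at a log2 fold change of -0.52, and the water channel gene *Aqp5* at -0.38, though with total-UMI scaling both turned to 0.44 and 0.56. *Cd74* (ENSMUSG00000024610), the invariant chain of antigen presentation, stood at 9.16, 5.65 and 126 against 49.7, 45.4 and 316, a log2 fold change of -1.99 (SE 0.35, adjusted p = 7.96e-04). That rested on 4, 1 and 16 UMIs against 16, 8 and 40. The myeloid list, whose cells also present antigen, had 9, 7 and 16 UMIs in members against 26, 9 and 62 in paired Kit- cells, with *Adgre1* at 0 in both, and its part in the *Cd74* difference was not tested. The summed acinar list took 162518, 210270 and 226306 of every 1000000 UMIs of all kinds in members against 368181, 281451 and 274313 in paired Kit- cells.

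**Figure D4:**
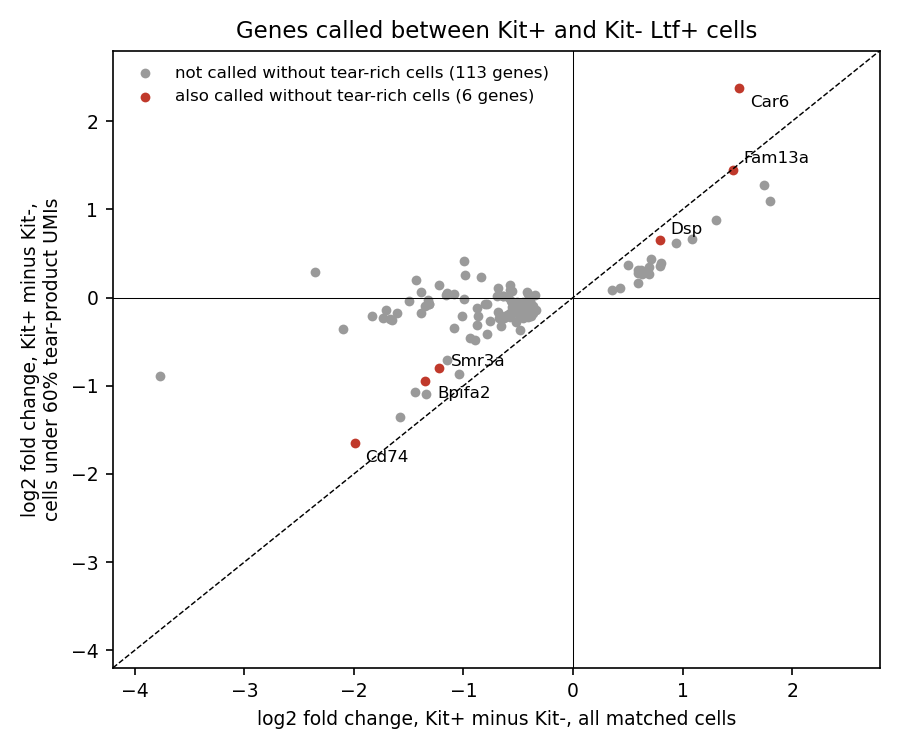
Log2 fold change of members over paired Kit- Ltf+ cells using all cells (x axis) and only cells under 60% tear products (y axis), for the 119 genes called with all cells and tested in both; the dashed line marks equal values. Labelled points are the 6 genes also called under 60%: *Car6*, *Fam13a*, *Dsp*, *Smr3a*, *Bpifa2* and *Cd74*.

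With cells at or above 60% tear products left out of both arms before pairing, a setting added once the data had been seen, most of these differences shrank. The female library then gave 34 pairs, with 580071 UMIs in members and 274052 in Kit- cells, so its arms were uneven in depth. Of 2986 genes tested, 4 were higher in members (0.134%) and 3 lower (0.1%), or 0.234% either way. The higher genes were *Car6* (log2 fold change 2.38, SE 0.15, adjusted p = 4.94e-11), *Fam13a* (1.45, SE 0.31, adjusted p = 0.010), *Dsp* (0.65, SE 0.16, adjusted p = 0.046) and the major urinary protein gene *Mup4* (0.80, SE 0.16, adjusted p = 0.038). The lower genes were *Cd74* (-1.65, SE 0.37, adjusted p = 0.015) and the secreted-protein genes *Bpifa2* (-0.95, SE 0.16, adjusted p = 1.14e-04) and *Smr3a* (-0.80, SE 0.19, adjusted p = 0.035). *Bpifa2* and *Smr3a*, named after their values were seen, had 0 UMIs in both arms of the male libraries in the full pairing, so their values come from the female library. All 21 genes called higher with all cells kept their direction and 3 kept the call. Of the 112 called lower, 98 were tested, 77 kept their direction and 3 kept the call. The acinar list had 12 genes tested, none called, and a median of 0.04. *Lcn11*, *Lpo*, *Mucl2*, *Obp1a*, *Scgb1b24*, *Scgb2b2* and *Wfdc12* of that list are tear-product genes. The setting selects cells on the share of those genes, so it cannot show whether they differ between the arms.

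The calls also rested on the female library, whose members were the deepest and whose pairing was uneven. Without it 2 genes were higher and 36 lower. Without male library 1 the counts were 13 and 77. *Dsp*, *Fam13a* and *Sult1d1* kept their direction without the female library, at log2 fold changes of 0.69, 1.47 and 0.78, and lost the call. *Car6* kept the call without any 1 library (1.24 to 1.71).

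Apart from *Kit* itself, the other genes of KIT signalling gave no call. Of the 34 listed, 13 were tested, none was called in either direction, and the median log2 fold change was 0.13 against 0.02 over all genes. *Lyn*, a SRC-family kinase that acts below KIT, stood at 93.9, 56.5 and 31.6 in members against 37.2, 34.0 and 7.90 (log2 fold change 0.82, SE 0.37, adjusted p = 0.29). The E3 ligase gene *Cbl*, which marks KIT for degradation, had 0.81 (SE 0.49, adjusted p = 0.50) and the adaptor gene *Grb2* 0.51 (SE 0.35, adjusted p = 0.58). *Etv1*, a transcription factor stabilised by MAPK signalling in KIT-dependent cells, had -0.59 (SE 0.29, adjusted p = 0.37), at 36.6, 96.1 and 86.9 against 37.2, 147 and 94.8. The SEs leave room for differences of the size of these values.

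Genes that the study assigned to an Aldh1a1+ duct population were called higher or not at all. Of the 23 tested, 3 were higher (*Sult1d1*, *Acsl1* and *Slc12a2*) and none lower, against 0.53% of all genes called higher, with a median of 0.41; the list was chosen on these samples and is not independent evidence of its direction. *Slc12a2*, the Na-K-Cl cotransporter of fluid secretion, stood at 955, 673 and 680 in members against 397, 386 and 490 (log2 fold change 0.60, SE 0.12, adjusted p = 0.0047). *Acsl1*, which activates long-chain fatty acids, stood at 653, 514 and 443 against 369, 176 and 276 (0.63, SE 0.16, adjusted p = 0.026). *Aldh1a1* itself, a retinaldehyde dehydrogenase gene, stood at 66.4, 96.1 and 47.4 against 31.0, 17.0 and 39.5, a log2 fold change of 0.94 (SE 0.40) that missed the threshold (adjusted p = 0.25). Under 60% tear products none of the list was called and its median was 0.04.

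Transcription factors, transporters and receptors gave few calls. Of 21 epithelial transcription factors tested, *Xbp1* was lower and none higher, with a median of 0.22. *Runx1*, a transcription factor of duct cells, stood at 648, 367 and 419 against 310, 278 and 276 (log2 fold change 0.43, SE 0.14, adjusted p = 0.11). *Sox10*, a neural crest and glandular factor, stood at 48.1, 79.1 and 15.8 against 18.6, 34.0 and 63.2 (0.33, SE 0.46, adjusted p = 0.84), and its arms overlapped. Among 15 transport genes, *Slc12a2* and the sodium pump subunit gene *Atp1b1* (1152, 757 and 569 against 503, 403 and 434, log2 fold change 0.59, SE 0.12, adjusted p = 0.0046) were higher and *Aqp5* lower. *Clic6*, a chloride channel family gene, had 0.89 (SE 0.27, adjusted p = 0.066). Of 25 redox genes only *Sult1d1* was called, and none of 5 iron handling, 7 growth factor and Notch receptor, 4 mammary luminal progenitor, 3 retinoid or 8 epithelial identity genes was. Of 9 other marker genes of the study's whole Ltf+ cluster, a list also chosen on these samples, *Aqp5* was called lower. Of 8 mucosal defence genes *Pigr* and the antiprotease gene *Wfdc12* (-1.15) were lower.

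The summed level of genes that respond to tissue dissociation stood higher in members of every library. It was 4124, 4475 and 3885 of every 1000000 UMIs of all kinds against 1431, 1970 and 2020 in paired Kit- cells. This scale counts tear products, whose median share per cell was 28.8%, 45.6% and 45.0% in members and 40.1%, 49.1% and 49.3% in paired Kit- cells. The level is a sum, in which tear-rich cells weigh more than in these medians. On the same scale the summed acinar list, which includes tear products, took 162518, 210270 and 226306 in members against 368181, 281451 and 274313. The dissociation sum was not computed in CPM, so the gap outside tear products is not given. Of the 19 genes 1 was called (*Egr1*), and the median log2 fold change was 0.36. Under 60% tear products none was called and the median was 0.16. Cells with a high doublet score were 30 of 51 female members, 2 in male library 1 and 0 in male library 2. In the paired arms the shares were 63.04% of members and 41.3% of Kit- cells in the female library, 2.53% and 6.33% in male library 1, and 0% and 9.52% in male library 2. Without such cells 13 genes were higher and 51 lower. The part of dissociation genes and doublets in the single calls was not tested.

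**Figure D5:**
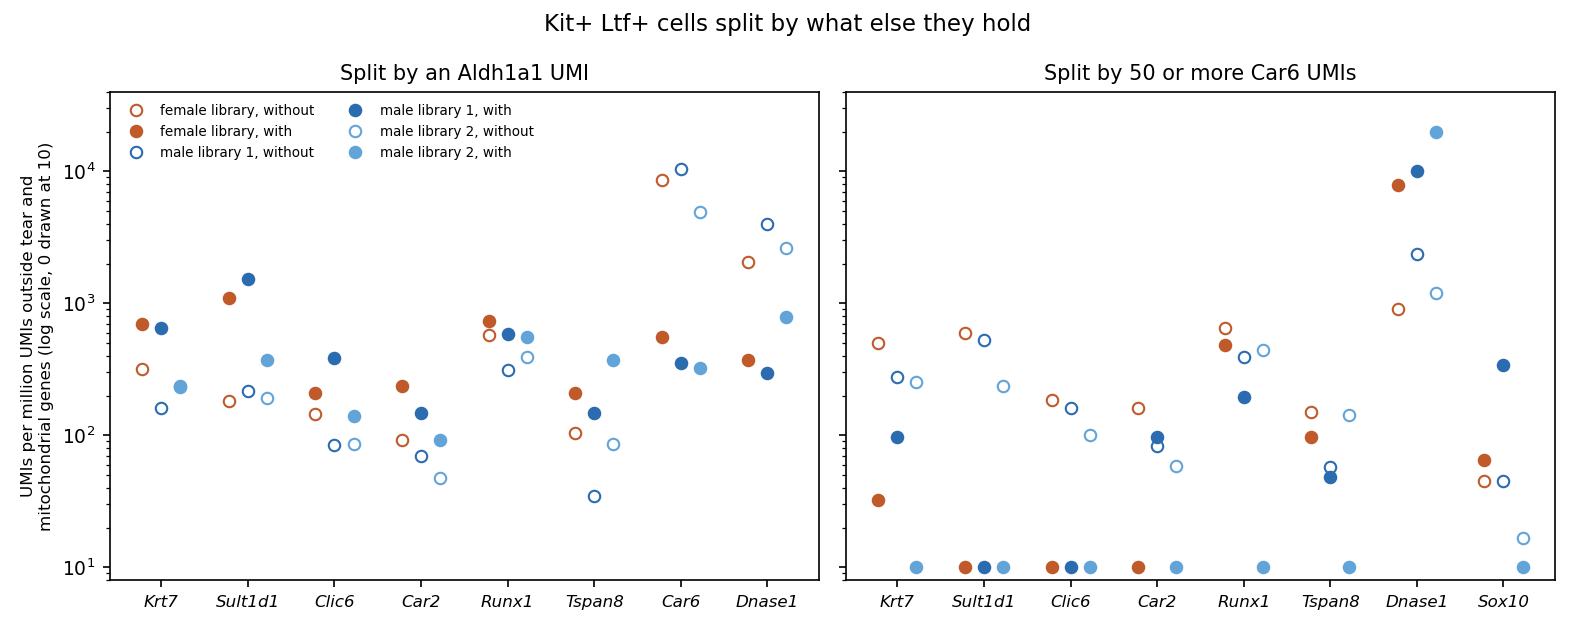
Level (y axis, log scale, CPM, 0 drawn at 10) of genes in members with and without an *Aldh1a1* UMI (left) and with and without 50 *Car6* UMIs (right), 1 point per library. *Krt7*, *Sult1d1* and *Clic6* are mostly higher beside *Aldh1a1*, and *Dnase1* and *Car6* are lower. Without the *Car6*-rich members (not drawn) *Car6* is lower beside *Aldh1a1* in the male libraries only. Members at 50 or more *Car6* UMIs had no *Sult1d1* or *Clic6* UMI.

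The members were not alike among themselves. *Aldh1a1* had a UMI in 33 of them (17, 10 and 6), *Sox10* in 24 (12, 10 and 2), 5 had both and 141 had neither. Members with *Aldh1a1* were deeper in every library, with medians of 12528, 4578 and 8839.5 UMIs against 8820, 2561 and 2908. CPM are therefore given, with no test. *Sult1d1* stood at 1106, 1534 and 372 beside *Aldh1a1* and at 182, 217 and 190 without it. *Car2*, a cytosolic carbonic anhydrase gene, *Clic6* and *Tspan8*, a tetraspanin gene, were also higher beside *Aldh1a1* in every library. The duct keratin gene *Krt7* stood at 697 and 649 against 320 and 161 in the first pair of libraries, and at 232 against 238 in male library 2. The tear nuclease gene *Dnase1* stood at 371, 295 and 790 beside *Aldh1a1* and at 2076, 3972 and 2647 without it. *Car6* stood at 559, 354 and 325 beside *Aldh1a1* and at 8570, 10447 and 4894 without it. Its few rich cells carried much of that difference. With members at 50 or more *Car6* UMIs left out, *Car6* stood at 395, 1217 and 893 without *Aldh1a1*. That was below the value beside *Aldh1a1* in the female library and above it in both male libraries. *Dnase1* without *Aldh1a1* then stood at 1328, 2957 and 1293. *Kit* stood at 243, 472 and 511 against 287, 580 and 600. It chose the members, mostly on 1 UMI, so these values describe the rule and the depth of each group.

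The 12 members with 50 or more *Car6* UMIs (3, 7 and 2) formed the other extreme. None had an *Aldh1a1* UMI and 7 had a *Sox10* UMI. Their *Dnase1* level was 7842, 10003 and 19992 against 915, 2380 and 1202 in the other members, and *Etv1* stood at 259, 243 and 132 against 19.1, 76.8 and 84.1. *Ltf* was lower, at 10564, 9614 and 3157 against 30010, 24776 and 27354. *Kit* stood at 454, 486 and 263 against 256, 569 and 605, and the order of the groups differed between libraries. These *Car6*-rich members carried the rule's *Ltf* and partner UMIs together with the genes of the *Car6* gate, and whether such a barcode held 1 cell or more was not tested.

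Cells with *Aldh1a1* also held other genes of its list in larger shares, among members and among the 625 Kit- Ltf+ cells. *Car2* had a UMI in 54.5% of members with *Aldh1a1* and 12.5% of those without, and in 36.1% and 5.09% of Kit- Ltf+ cells. *Clic6* had one in 63.6% against 19.4% of members and in 25.0% against 8.32% of Kit- Ltf+ cells. *Krt7* had one in 87.9% against 33.1% of members and in 52.8% against 25.0% of Kit- Ltf+ cells. *Sox10* had one in 15.2% and 11.9% of members. These shares pool libraries and move with depth, since members with *Aldh1a1* had a pooled median of 8489 UMIs and those without 3514.5, and Kit- Ltf+ cells 3664 and 2393. No difference between members and Kit- cells was tested here. By library, *Aldh1a1* was detected in 33.3%, 12.7% and 9.52% of all members and in 17.4%, 3.797% and 7.94% of paired Kit- cells.

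Against the *Car6* gate, another class with *Kit* UMIs, members differed in 33.7% of 7284 genes tested, with 1238 higher (17.0%) and 1219 lower (16.7%). The gate held 600 cells. Its median *Car6* count was only 8, 3 and 3 UMIs and its tear-product share 76.0%, 82.2% and 83.7%, so it is named by its rule. With gate cells at 50 or more *Car6* UMIs alone (77, 26 and 33 cells), a setting added once the data had been seen, 339 genes were higher (12.3%) and 254 lower (9.2%) of 2761. Genes of either rule were not tested here. In CPM the median gene stood higher in members by 1.56, 0.65 and 0.55 (log2). Total-UMI scaling raised it by 2.67 and gave 6954 higher and 58 lower, so directions are again relative to the median gene.

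Genes of the Aldh1a1+ list and redox genes were mostly higher in members than in that gate. Of the 23 Aldh1a1+ genes, 20 were higher and none lower, with a median log2 fold change of 4.25 against 0.06 over all genes, on a list chosen on these samples; 17 were higher against the gate at 50 *Car6* UMIs. *Aldh1a1* had 30, 17 and 6 UMIs in members and 0 in the gate, at least 122-fold higher against a floor of 3 counts over the gate. *Clic6* was at least 262-fold higher by the same floor and *Alox12*, a lipoxygenase gene, at least 280-fold. *Cxcl17*, a mucosal chemokine gene, stood at 945, 684 and 956 against 0.752, 0 and 7.08 (log2 fold change 8.02). *Runx1* stood at 638, 367 and 419 against 25.3, 22.0 and 18.9 (3.19, SE 0.22, adjusted p = 2.55e-26), and *Tfcp2l1*, a duct transcription factor gene, at 983, 469 and 427 against 10.0, 7.76 and 2.36 (5.13, SE 0.24, adjusted p = 1.05e-38). *Krt7* had a log2 fold change of 5.98 and the peroxidase gene *Gpx2* 5.86. Redox genes were higher in 20 of 27 and lower in none, and transport genes in 12 of 15 with 1 lower. Dissociation-responsive genes were higher in 15 of 19 and lower in none (median 0.90), and their part in these differences was not tested.

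Receptor genes were higher as well. Of 11 growth factor and Notch receptor genes 7 were higher than in the *Car6* gate (*Egfr*, *Fzd6*, *Igf1r*, *Lgr4*, *Met*, *Notch2* and *Notch3*) and none lower. Against gate cells at 50 *Car6* UMIs or more, 3 were tested and *Igf1r* was higher. In the KIT signalling list *Cbl*, *Gab1*, *Lyn* and *Mapk3* were higher and *Etv1* lower, of 22 tested, with a median of 0.30. Over all genes tested 17.0% were higher and 16.7% lower, so the number higher in this list was near that of genes in general. *Lyn* stood at 93.4, 56.5 and 31.6 against 9.02, 2.59 and 7.08 (log2 fold change 1.97, SE 0.38, adjusted p = 6.61e-06). *Etv1* stood at 35.6, 96.1 and 86.9 against 133, 195 and 165 (-2.52, SE 0.25, adjusted p = 3.06e-12). Against gate cells at 50 *Car6* UMIs, 8 genes of the list were tested, with none higher and 1 lower.

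Acinar genes were lower in members than in the *Car6* gate. All 14 acinar genes were lower (median -3.29), among them *Pigr* (-3.28), *Lpo* (-2.65) and *Bhlha15*, a transcription factor of secretory cells (-2.71). Against gate cells at 50 *Car6* UMIs or more, 6 were lower, with a median of -2.09. *Dnase1* (-3.12), *Mup4* (-3.34), *Etv1* and *Bglap3* of the Car6-high acinar list were lower and none higher. The plasma cell genes *Igha* and *Jchain* had 624, 220 and 1 and 569, 173 and 2 UMIs in the gate and 0 in members. *Sox10* was higher in members, at 46.7, 79.1 and 15.8 against 3.26, 3.88 and 4.72 (log2 fold change 2.43, SE 0.46, adjusted p = 5.35e-06). It was not among the genes called against gate cells at 50 *Car6* UMIs or more, 13 of 77, 2 of 26 and 1 of 33 of which had a *Sox10* UMI.

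Against the *Wfdc2* duct gate, 33.3% of 3878 genes differed, with 631 higher in members (16.3%) and 662 lower (17.1%). The gate held 758, 77 and 66 cells, so the male values rest on few cells, and without the female library 265 genes were higher and 294 lower. Transport genes were mostly higher in members. Of 16 transport genes 11 were higher and *Aqp3*, a water channel of basal cells, was lower, with a median log2 fold change of 3.27 against 0.03 over all genes. *Slc12a2* stood at 941, 673 and 680 against 26.7, 14.04 and 0 (5.04, SE 0.29, adjusted p = 9.88e-16), *Aqp5* at 725, 729 and 854 against 44.9, 112 and 166 (3.33, SE 0.27, adjusted p = 1.93e-11), and *Ano1*, an apical chloride channel gene, had 5.39. *Car2* (5.65), *Clic6* (6.61) and the proton pump subunit gene *Atp6v1b1* (5.59) were higher.

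The members' keratins and transcription factors also differed from those of the duct gate. *Krt8* (2.79) and *Krt18* (2.97) were higher, while the basal keratin gene *Krt15* (-4.25) and the basal cell factor gene *Trp63* (-4.81) were lower. *Elf5*, a factor of alveolar and luminal progenitor cells, stood at 100.1, 130.0 and 174 against 6.80, 28.1 and 0 (log2 fold change 3.55, SE 0.42, adjusted p = 1.92e-08). *Sox10* stood at 46.7, 79.1 and 15.8 against 1.81, 0 and 0 (4.46, SE 0.96, adjusted p = 3.25e-04). *Runx1* differed less (0.60, SE 0.21, adjusted p = 0.023), and *Sox9*, a factor shared by duct cells, had 0.04 (SE 0.21, adjusted p = 0.91). Of 22 epithelial transcription factors 6 were higher and 6 lower.

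*Kitl*, the ligand gene, was lower in members than in the duct gate, at 11.1, 0 and 7.90 against 161, 126 and 41.6 (log2 fold change -4.19, SE 0.45, adjusted p = 2.47e-09). The MAPK feedback genes *Dusp6* (88.8, 98.3 and 125 in the duct gate against 11.1, 11.3 and 0 in members, log2 fold change -3.49) and *Spry2* (-1.61) were lower too, with *Stat3* (-1.06), and *Mapk3* was higher (0.75), of 15 KIT signalling genes tested. The median of that list was 0.12. *Fgfr1* (-3.13), *Fgfr2* (-3.46), *Egfr* (-2.31) and the Notch ligand gene *Jag2* (-3.96) were lower, while *Erbb3* (1.99) and *Notch2* (1.16) were higher. Dissociation-responsive genes were lower in 18 of 19, with a median of -2.09, and they include *Fos* at 796, 1566 and 1359 in members against 5609, 4239 and 3681. Their part in the lower values of *Dusp6* and *Spry2*, which respond quickly to signalling, was not tested.

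Redox and detoxification genes were mostly higher in members than in the duct gate. *Cyp2a5*, a cytochrome P450 gene, stood at 5101, 1662 and 1699 against 29.9, 14.04 and 0 (log2 fold change 7.23), and *Pglyrp1*, which encodes a bactericidal peptidoglycan-recognition protein, at 583, 910 and 948 against 10.4, 14.04 and 41.6 (5.49, SE 0.30, adjusted p = 3.24e-16). *Sult1d1* had 6.995 and the peptidase gene *Enpep* 6.97. *Dapl1*, by contrast, stood at 2.22, 11.3 and 23.7 against 640, 519 and 770 (-6.41), and the beta-defensin gene *Defb1* was lower (-6.50). *Aldh1a1* was higher in members, at 66.7, 96.1 and 47.4 against 12.2, 0 and 20.8 (2.34, SE 0.57, adjusted p = 0.0013). Of 25 redox genes 16 were higher and 3 lower, and of the 23 Aldh1a1+ genes 13 were higher and *Nfib* lower, with a median of 0.84, again on a list chosen on these samples.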

How the data were processed

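Gene-by-barcode count matrices of whole UMIs were deposited by the authors for 3 libraries, and the submitters' processing notes name Cell Ranger 6.1.2 and mm10. No normalization had been applied. Barcodes with over 500 UMIs, over 200 genes and under 15% mitochondrial UMIs were kept. Doublets were scored with Scrublet in scanpy 1.11.5 but kept. The members and the 25 gene lists (317 genes) were chosen with earlier results of these data known.

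Members were paired with Kit- Ltf+ cells within a library on log UMIs outside 117 tear-product and 13 mitochondrial genes. UMIs were summed per library and arm and tested with edgeR 4.0.16 in R 4.3.3 (filterByExpr at a minimum count of 10, TMM, robust quasi-likelihood fit, library as a term), and Benjamini-Hochberg adjusted p under 0.05 was a call. The libraries are separate pools of animals. With library as a term, p-values measure how far the difference between arms varies over the 3 libraries, with variance estimates shared in part over genes. They do not measure the spread of levels between libraries. DESeq2 1.42.0, other gates, pairings, depths and scalings were alternatives. The edgeR fits of the 3 main comparisons were tested on simulated data. Shares of cells carry exact (Clopper-Pearson) 95% intervals.

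Named genes were up to 15 higher and 15 lower per comparison with the largest fold change among those called, changed the same way in 3 of 3 libraries and with at least 30 UMIs, from which examples are given, besides list genes. The splits of members by *Aldh1a1* and at 50 *Car6* UMIs, *Bpifa2* and *Smr3a* were chosen after values were seen. Where a compared arm was at 0, the fold is a bound against 3 counts over that arm.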

Additional observations from a re-analysis of the deposited data

Results flagged for a closer look

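Log2 ratios of CPM, members over paired Kit- Ltf+ cells, were screened for a sign that differs between the female and male libraries. The screen covered genes named for that comparison, other called genes of the lists and chosen markers, each with at least 30 UMIs. It did not cover all 3965 genes tested. In 3 of the screened genes the female library lay on the other side of 0 from both male libraries. The difference was not tested, since there is 1 female library. *Aqp5* had 0.20 in the female library and -0.33 and -0.16 in the male ones. *Xbp1* had 0.000406 in the female library and -0.29 and -0.43 in the male ones. Relative to each library's median gene the sign was shared, at -0.30, -0.47 and -0.29 for *Aqp5* and -0.50, -0.42 and -0.56 for *Xbp1*. *Cldn4*, a tight junction gene, had -0.56 in the female library and 1.17 and 5.03 in the male ones, on 10, 7 and 4 UMIs in members against 11, 3 and 0 in Kit- cells, so the last ratio rests on a pseudocount.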

How the results depend on the processing

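Against paired Kit- Ltf+ cells (21 higher, 112 lower) the counts moved under most alternatives, given as higher and lower. They were 2889 and 21 with total-UMI scaling, which shifted the median gene by 1.01 (log2), 1 and 31 with DESeq2, 38 higher with all Kit- cells, 11 higher with at least 4 UMIs per criterion, 11 and 64 with at least 2 *Kit* UMIs, 13 and 51 without high doublet scores, 42 lower when pairing on total UMIs, 7 and 15 under 5% mitochondrial UMIs, and 0 and 5 with cells thinned to 1000 UMIs (634 genes, 58 at an unadjusted p under 0.05). Alternatives chosen after seeing the data gave 60 lower with pairs thinned to equal depth, 6 and 16 also without the deepest 10% of pairs, 72 lower with pairs within 0.2 natural log units, and 4 and 3 under 60% tear products. Leaving out 1 library gave 2 to 24 higher and 36 to 114 lower. Against the *Car6* gate (1238 and 1219) they were 339 and 254 at 50 *Car6* UMIs, 785 higher under 5% mitochondrial UMIs, 152 and 148 thinned, 6954 and 58 with total-UMI scaling (median shift 2.67), 573 and 499 with DESeq2, and 810 (without the female library) to 1140 higher and 861 to 1139 lower leaving out 1 library. Against the duct gate (631 and 662) they were 166 and 192 thinned, 256 and 370 with DESeq2, and 265 to 596 and 294 to 651 leaving out 1 library. The *Kit* share of Ltf+ cells thinned was 13.4%, 8.55% and 6.00%, and 8.02% pooled. Reversed fold changes were *Car6* -0.72 without cells at 50 *Car6* UMIs, *Esp24* 0.29, *Lcn11* 0.14, *Lpo* 0.022, *Obp1a* 0.064 and *Wfdc12* 0.051 under 60% tear products, and *Aqp5* 0.56, *Lpo* 0.24 and *Xbp1* 0.44 with total-UMI scaling. Those reversed under 60% tear products are themselves tear-product genes, on whose share that setting selects cells. Of the other gene values, 978 kept direction and side of the threshold and 311 lost the call. The causes were not tested. The fits above are paired by library, both arms of which come from 1 suspension. With no replicate block for the library, 0 and 0 genes were called against Kit- cells by edgeR (242 at an unadjusted p under 0.05; DESeq2 with the block called 1 and 31), 998 and 904 against the *Car6* gate, and 391 and 453 against the duct gate. A single *Kit* UMI defines 135 of the 193 members, and what limits the detection of *Kit* was not tested.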
